A study of Saccharomyces cerevisiae with 119 samples.

Results

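The data cover 35 genes of the yeast Saccharomyces cerevisiae: the 33 subunits of the 26S proteasome, the core maturation factor UMP1 (YBR173C) and the transcription factor gene RPN4 (YDL020C). The members were taken by name as the known subunit genes plus UMP1 and RPN4, and they are 35 of the 6685 genes in the expression table. No measured value entered this rule, but earlier results of these data were known when it was chosen. All 35 passed the filter on low values in both experiments of the study, where 6090 and 5748 genes were tested. The subunits fall into 14 genes of the 20S core (PRE1 to PRE10, PUP1 to PUP3 and SCL1), 6 ATPases of the 19S regulatory particle (RPT1 to RPT6) and 13 of its non-ATPase subunits (RPN1 to RPN3, RPN5 to RPN13 and SEM1). The study measured polyadenylated mRNA in wild yeasts that differ in how they acquire stress resistance. The RNA sequencing data are 119 libraries.

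The strain experiment holds 71 libraries of 8 homozygous diploid strains. Each was sampled unstressed, after 5% ethanol for 30 min and after 0.4 M NaCl for 45 min. The strains are DBY8268 (a laboratory strain derived from S288c), YJM1129 (distillery), YJM308 (clinical), M1 and M22 (vineyard), YPS163 and YPS606 (oak) and Y10 (coconut). Each strain and treatment has 3 libraries, except Y10 under ethanol, which has 2. For 3 Y10 libraries the title and the description disagreed on treatment or number, and the descriptions, which are also the column names of the table, were used. The mutant experiment holds 48 libraries of the oak strain YPS606: homozygous msn2/4∆ (both MSN2 and MSN4 deleted), skn7∆ and yap1∆ mutants and their wild type, each under the same 3 treatments with 4 libraries. All of these mutants are in this 1 background. Replicates are separate cultures. By the study's methods the unstressed sample of a culture was taken first, at 0 min. The rest was then split by dilution into medium with ethanol or NaCl. No unstressed sample was taken at 30 or 45 min, so each response also includes elapsed time and dilution into fresh medium.

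The 26S proteasome degrades proteins tagged with ubiquitin. Its 20S core carries the proteolytic sites inside a barrel, and the 19S particle recognises the tagged protein, unfolds it with its ATPase ring and passes it into the core. Ump1 is a chaperone that is enclosed in the maturing core and is then degraded as the first substrate. Rpn4 is a zinc finger activator of the proteasome genes through a promoter element called PACE, and it is itself a short-lived proteasome substrate, so that proteasome genes are tied to proteasome activity by a feedback loop. The promoter of RPN4 is known to be bound by Yap1, Hsf1 and Pdr1/Pdr3. Messenger RNA does not show how much Rpn4 protein was present.

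The PACE sequence GGTGGCAAA, searched on both strands from 250 bases before to 50 after the start codon in the R64 reference genome, occurs at 27 of the 33 subunit genes. It occurs in 12 of 14 core genes, 6 of 6 ATPase genes and 9 of 13 non-ATPase genes, against 1.2% of the same window over 6001 genes. All 27 occurrences begin between 183 and 84 bases before the start codon, 19 of them on the gene's own strand and 8 on the opposite one. PRE1 (YER012W), PRE4 (YFR050C), RPT2 (YDL007W) and RPN3 (YER021W) are shown here because the largest mutant differences or salt responses fell on them, with the element in capitals (chrV:177683-177711, chrVI:249959-249987, chrIV:437906-437934 and chrV:196843-196871, each written on the strand of its gene).
PRE1: aaatctttacGGTGGCAAAaaataaagaa
PRE4: tggtttagaaTTTGCCACCttaaatacgt
RPT2: gtttttctccGGTGGCAAAtgtctctttt
RPN3: acgaaaaacaTTTGCCACCcaagaaagag

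The 6 subunits without the full element are PRE5, PUP1, RPN8, RPN10, RPN13 and SEM1. The 7 inner letters GTGGCAA, which are contained in PACE, occur at 32 of 33 subunits (all but RPN13) and at UMP1, against 4.68% of all 6001 windows. Shown for PRE5, RPN10, SEM1 and UMP1, with those letters in capitals, are the stretches at chrXIII:901552-901580, chrVIII:498887-498915, chrIV:1202076-1202104 and chrII:582267-582295. PRE5, RPN10 and SEM1 return below as members whose salt response in the mutants was lower than in wild type without passing the threshold.
PRE5: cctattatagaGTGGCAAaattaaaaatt
RPN10: tgctgatgttgTTGCCACttcttgtttac
SEM1: aagtgaatagaGTGGCAAtaaaagtcgaa
UMP1: gtaaccatgcaGTGGCAAttttatcctac

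RPN4 has neither form of PACE in this window. Within 600 bases before its start codon, a window chosen after the data had been seen, it holds a Yap1 site TTACTAA (13.7% of 5999 genes have one there), heat shock elements of the form GAANNTTCNNGAA (1.7%) and the Pdr1/Pdr3-type letters TCCGTGGA (1.3%). The stretches are chrIV:417065-417093 for the Yap1 site, chrIV:417036-417064 and chrIV:416709-416737 for the heat shock elements and chrIV:417132-417161 and chrIV:417089-417118 for the Pdr-type sites. Both heat shock elements and the second Pdr-type site match on the opposite strand. All stretches are written on the strand of the gene, with the matched letters in capitals. They are shown because RPN4 changed with ethanol and in the yap1∆ mutant.
RPN4 Yap1 site: cgtgatcgctaTTACTAAtagccgtttac
RPN4 distal heat shock element: agtgatggTTCTAGAAAGTTCcgtttcgg
RPN4 proximal heat shock element: caaaagttTTCTAGAATTTTCaagcaatc
RPN4 distal Pdr-type site: taataacaagtTCCGTGGAactcaaagaaa
RPN4 proximal Pdr-type site: gtacgaaccttTCCACGGAtaatcacgtga

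In the same 600 bases of the subunits, the Yap1 letters TTACTAA occurred at 5 of 33 genes (PRE5, RPN7, RPN8, RPN10 and RPT2, against 13.7% of all genes) and TTAGTCA at 1 (7.03%). The Msn2/Msn4 letters AGGGG occurred at 14 of 33 (39.7%), and the heat shock element (1.7%), TCCGCGGA (0.75%) and TCCGTGGA (1.3%) at 0. In the shorter window, from 250 bases before to 50 after the start codon, TTACTAA occurred at 3 (PRE5, RPN7 and RPN8, against 7.45%), TTAGTCA at 0 (3.62%) and AGGGG at 8 (21.6%). There the heat shock element (0.783%) and TCCGTGGA (0.4%) occurred at 0 and TCCGCGGA at 1 (0.217%). A match in these letters is a description of the reference sequence and not a bound site.

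Libraries held 7726938 to 18253411 estimated counts (median 12691127), and the scarcest member, SEM1, had at least 36 counts in every library. Values are given as CPM, the counts of a gene scaled to a common library size after TMM normalisation, so that they are shares of the mRNA of a library and say nothing about total RNA per cell. A single library stood apart: the third YPS606 ethanol library of the strain experiment deviated from its group mean by 0.613 on the log2 scale (SD over all genes), against at most 0.39 in each other library, and had the lowest TMM factor, 0.513. PRE6 was at 54.8 CPM in it, against 143 and 165 CPM in the other 2. Each count that it moved by more than 1.5 times is given with and without it. A gene is called changed at a false discovery rate of 0.01 (edgeR quasi-likelihood test, Benjamini-Hochberg over all genes tested), and changes are log2 values with standard errors (SE).

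Levels in unstressed cells of the 8 strains can be compared between genes once divided by gene length. The median strain had 311 CPM per kb of UMP1, the highest member (216 to 453 over strains), and 236 CPM per kb of PRE10. The lowest subunit was RPN9 at 97.8 CPM per kb, and RPN4 lay below all subunits at 59.3. The gene model of no member overlaps another gene in R64.

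Ethanol raised most proteasome genes and raised RPN4 most. Over the mean of the 8 strains, 25 of the 35 members rose, 1 fell and 9 were not called, where 42.4% of all 6090 genes rose and 40.8% fell. The 33 subunits had a median response of 0.32, against 0.05 over all genes tested. RPN4 rose by 2.43 (SE 0.0698, adjusted p = 1.37e-36), a 5.41-fold increase, and UMP1 rose by 0.63 (SE 0.0552, adjusted p = 2.75e-15).

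By structure, 12 of 14 core subunits rose under ethanol (median 0.44), as did 4 of 6 ATPases (median 0.37) and 7 of 13 non-ATPase subunits (median 0.27). Of all genes, 42.4% rose (median 0.05). PRE3, which encodes the core subunit with caspase-like activity, had the largest subunit response at 1.08 (SE 0.0618), and PRE1 and PRE4 rose by 0.65 and 0.64. Of the ATPases, RPT3 rose by 0.83, while RPT4 was at -0.11 and was not called. RPN11, the deubiquitinase of the lid, rose by 0.62, and RPN3 by 0.60. SEM1, the smallest lid subunit, was the 1 member that fell, by 0.40 (SE 0.118, adjusted p = 0.00162), and without the libraries of replicate 3 it was not called and no member fell (29 rose).

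Under NaCl the subunits rose on average while RPN4 did not. In the mean of the 8 strains 21 members rose, 4 fell and 10 were not called, where 33.7% of all genes rose and 41.9% fell. The subunit median was 0.27, against -0.06 over all genes. All 6 ATPases rose (median 0.36), from RPT6 at 0.27 to RPT5 at 0.62, and 9 of 14 core genes rose (median 0.29), with PRE4 highest at 0.55 and PUP2, at -0.10, not called.

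The non-ATPase subunits were split under NaCl, with 5 of 13 higher, 3 lower and a median of -0.04. RPN2 and RPN1, the large scaffold subunits of the base, rose by 0.67 and 0.55, whereas SEM1, RPN13 and RPN5 fell by 0.42, 0.24 and 0.22. UMP1 rose by 0.44 (SE 0.0543, adjusted p = 2.81e-10). RPN4 was at -0.19 (SE 0.0665, adjusted p = 0.00783), a call that was lost with DESeq2 or its size factors (-0.11), with no filter (-0.10), with no replicate block (-0.20), and without the libraries of replicate 2 (-0.13) or 3 (-0.01) or the third YPS606 ethanol library (-0.10).

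Set against each other directly, levels were higher under ethanol than under NaCl for 19 members and lower for 10. Of all genes, 41.6% were higher and 36.9% lower. Ethanol libraries were taken at an earlier time than NaCl libraries, so stress and sampling time are not separated in this comparison. RPN4 differed most, by 2.63 (SE 0.0702, adjusted p = 1.18e-37). The median difference over subunits was 0.17, against 0.08 over all genes. Core genes were mostly higher under ethanol (8 higher and 3 lower, with PRE1 at 0.71 and PRE6 at -0.24), ATPases were evenly split (3 and 3, with RPT3 at 0.43 and RPT4 at -0.42), and among non-ATPase subunits 6 were higher and 4 lower, from RPN11 at 0.65 to RPN1 at -0.49.

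**Figure D1:**
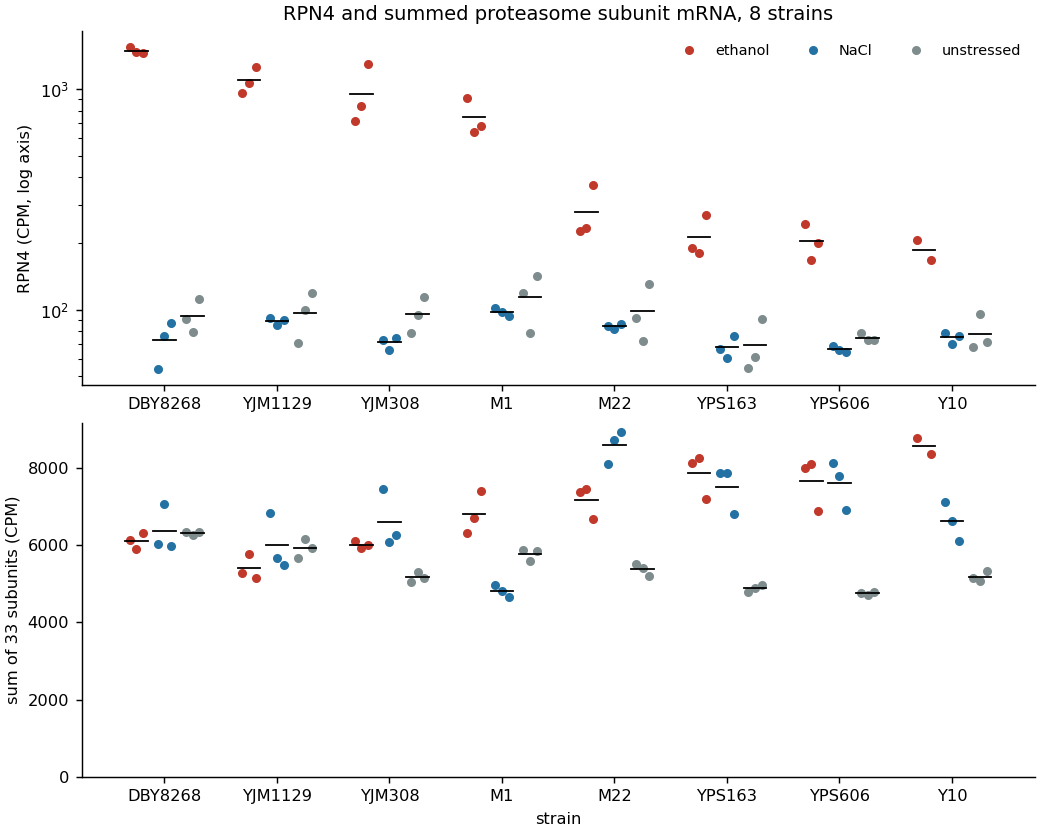
Levels in the strain experiment, in CPM, by strain on the horizontal axis and by treatment (ethanol, NaCl and unstressed, from left to right). Points are libraries and bars are means; the RPN4 panel has a log axis. RPN4 under ethanol reached 1549 CPM in DBY8268 and 168 CPM in the lowest libraries of YPS606 and Y10.

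The size of the RPN4 response to ethanol separated the strains. RPN4 was at 1549, 1470.2 and 1454 CPM in the DBY8268 ethanol libraries, against 90.4, 79.2 and 112 CPM in its unstressed libraries. In YJM1129 the ethanol libraries had 963, 1064 and 1264 CPM, against 70.4, 99.6 and 119 CPM unstressed. In YJM308 they had 716, 838 and 1307 CPM, against 78.8, 94.5 and 114 CPM unstressed. In these 3 strains every ethanol library lay far above every unstressed one, and the response was 4.01 (16.1-fold), 3.51 (11.4-fold) and 3.30 (9.86-fold). M1 followed, with 916, 641 and 682 CPM under ethanol, against 119.8, 78.9 and 143 CPM unstressed, a response of 2.74 (6.69-fold).

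The other 4 strains had much lower RPN4 levels under ethanol, all below those of the first 4. YPS163 had 191, 181 and 269 CPM under ethanol, against 54.6, 60.9 and 91.3 CPM unstressed, a 3.10-fold response. M22 had 227, 235 and 369 CPM under ethanol, against 92.2, 71.9 and 131 CPM unstressed (2.82-fold). Every ethanol library of both strains lay above every unstressed library of the same strain.

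The same was seen in YPS606 and Y10. YPS606 had 244, 168 and 202 CPM under ethanol, against 78.3, 72.8 and 72.8 CPM unstressed (2.74-fold). Y10 had 206 and 168 CPM in its 2 ethanol libraries, against 67.5, 95.3 and 71.2 CPM unstressed (2.52-fold). In order of ethanol level DBY8268 stood above all others, YJM1129 and YJM308 overlapped, and so did YJM308 and M1. YPS163 and YPS606 overlapped each other and both M22 and Y10, whereas M22 lay above Y10.

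Tested against the mean response of the 8 strains, RPN4 responded more to ethanol in DBY8268 (by 1.58, SE 0.178, adjusted p = 7.72e-11), YJM1129 (1.08, adjusted p = 2.21e-06) and YJM308 (0.87, adjusted p = 1.32e-04). It responded less in Y10 (-1.10), YPS606 (-0.98), M22 (-0.94) and YPS163 (-0.80), all called, and M1 did not differ beyond the threshold (0.31, adjusted p = 0.19). Without the libraries of replicate 2 the calls in Y10 (-0.77), YPS606 (-0.85), YPS163 (-0.78) and YJM308 (0.87) were lost. The 8 differences of a gene sum to 0 by construction, so a large positive value in some strains goes with negative values in the rest.

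Under NaCl, RPN4 stayed near its unstressed level in all strains. Its response lay between -0.42 in YJM308 and -0.01 in YPS163, and in no strain was the difference from the 8-strain mean called. DBY8268, for example, had 54.1, 76.2 and 87.5 CPM under NaCl, against 90.4, 79.2 and 112 CPM unstressed. Unstressed RPN4 levels did not differ from the 8-strain mean in any strain at the threshold, with differences from -0.38 in YPS163 to 0.35 in M1.

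**Figure D2:**
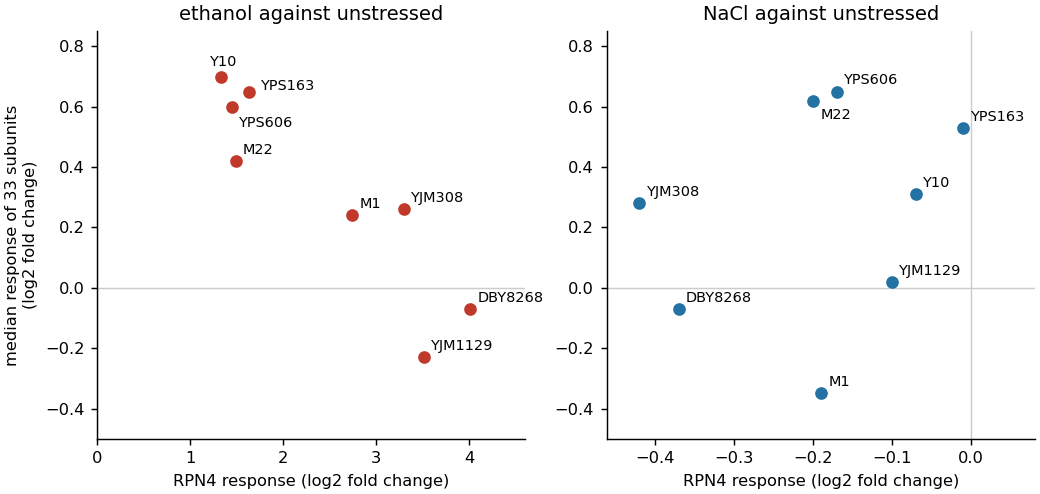
The response of RPN4 (horizontal axis, log2) beside the median response of the 33 subunits (vertical axis, log2), with 1 point per strain and treatment. Under ethanol DBY8268 and YJM1129 have the largest RPN4 responses, 4.01 and 3.51, and the lowest subunit medians, -0.07 and -0.23.

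The strains with the largest RPN4 response to ethanol did not have the largest subunit response. The subunit median was -0.07 in DBY8268, -0.23 in YJM1129, 0.26 in YJM308 and 0.24 in M1, and it was 0.42 in M22, 0.60 in YPS606, 0.65 in YPS163 and 0.70 in Y10. In each strain both values use the same unstressed libraries, and the 8 strains are given as a description.

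The sum of the 33 subunits gave the same picture at the level of libraries. In Y10 the sum was 8772 and 8364 CPM under ethanol, against 5143, 5078 and 5322 CPM unstressed. In YPS163 it was 8139, 8258 and 7205 CPM under ethanol, against 4789, 4892 and 4965 CPM unstressed. In both strains the groups were far apart, and the same held for YPS606 (6889 to 8095 CPM, against 4705 to 4791 CPM) and M22 (6688 to 7452 CPM, against 5210 to 5501 CPM).

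In the laboratory strain DBY8268 the sum was 6137, 5895 and 6319 CPM under ethanol, against 6347, 6257 and 6349 CPM unstressed, and the ranges overlapped. In YJM1129 it was 5269, 5769 and 5158 CPM under ethanol, against 5675, 6169 and 5937 CPM unstressed, again with overlap. Within each culture of both strains the sum was lower under ethanol than unstressed. Paired in this way, 16 subunits were lower and 4 higher in all 3 YJM1129 cultures, and 14 were lower and 9 higher in all 3 DBY8268 cultures. The share of all genes that moved alike in every culture was not computed, so these counts are a description. UMP1 in DBY8268 was at 130.2, 132 and 117 CPM under ethanol, against 134, 111 and 123 CPM unstressed.

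**Figure D3:**
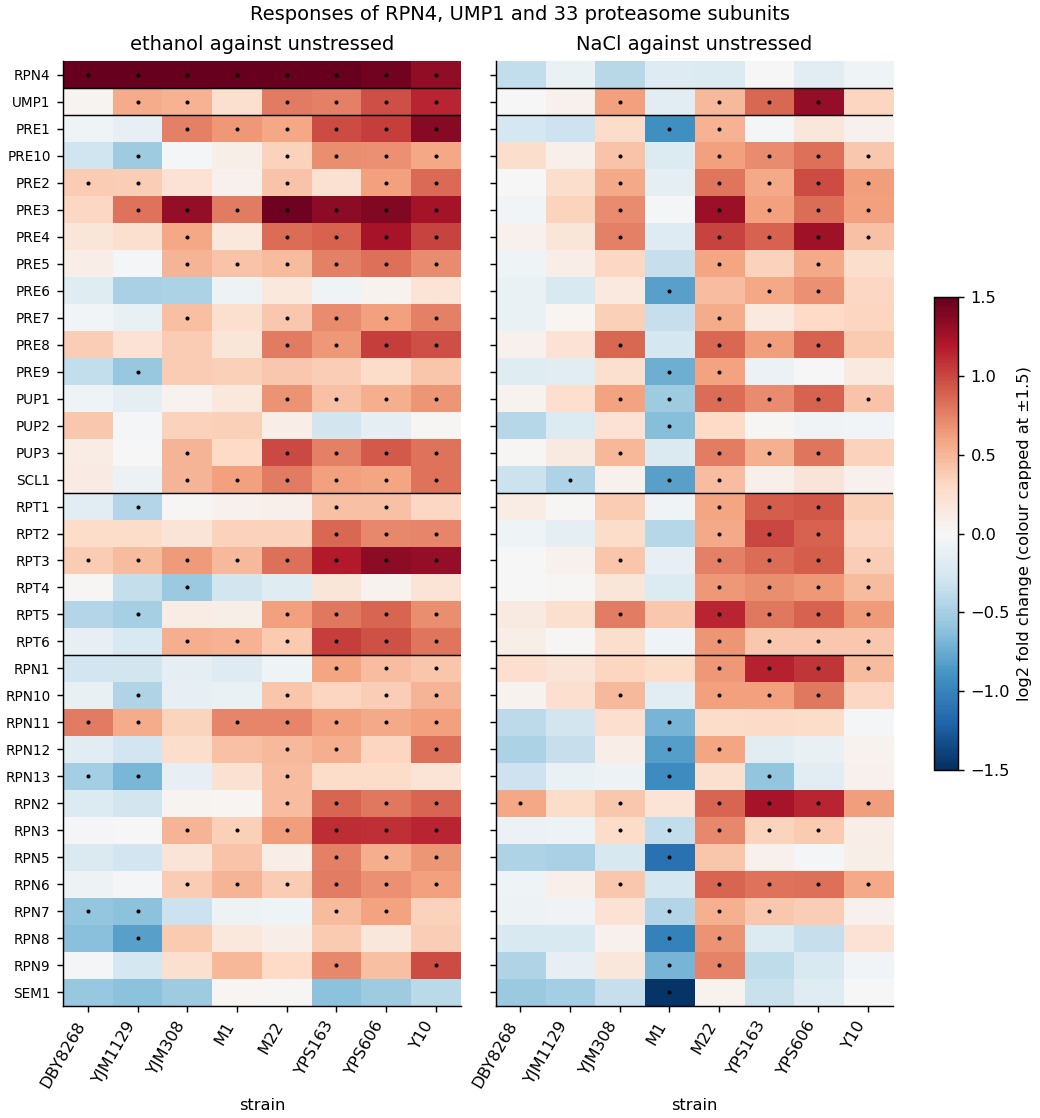
Log2 responses of the 35 members to ethanol and to NaCl in each strain, with members as rows grouped by structure and strains as columns. Colour is capped at 1.5 in either direction and dots mark genes called at a false discovery rate of 0.01. The subunit medians are -0.07 in the DBY8268 and -0.23 in the YJM1129 ethanol columns and -0.35 in the M1 NaCl column.

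Against the 8-strain mean, 22 members responded less to ethanol in DBY8268 and only RPN4 responded more, where 20.0% of all genes were lower and 22.9% higher. The largest subunit difference was that of PRE3 (-0.78, SE 0.161, adjusted p = 5.24e-05), and UMP1 was also lower (-0.59). In YJM1129 24 members were lower and again RPN4 alone was higher, where 13.3% of all genes were lower and 15.1% higher. RPN8 (-0.84, SE 0.21) and the ATPase RPT5 (-0.77, SE 0.148) differed most. Leaving out replicate 1, 2 or 3 in turn left 10, 9 and 24 members called in DBY8268 and 13, 14 and 19 in YJM1129, higher and lower together.

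Higher responses to ethanol were called in Y10 (9 members, where 9.24% of all genes were higher), YPS163 (8, of 10.5%), YPS606 (10, of 9.70%) and M22 (2, of 7.80%). In each of these strains RPN4 was the 1 member that was lower, where 12.4%, 10.2%, 6.91% and 10.7% of all genes were lower. PRE1 in Y10 (0.72, SE 0.141), RPN7 (0.63) and RPT5 (0.59) in YPS606 and UMP1 in Y10 (0.51, adjusted p = 0.00912, not called without the replicate block, at 0.49, with the culture as the block, at 0.53, or without the first Y10 NaCl library, at 0.51) are examples. In M1 2 members were lower (of 9.43%), and in YJM308 only RPN4 was called, as higher (of 9.34%). The shares of the 35 members called higher in M22, lower in M1 and higher in YJM308 were below those of all genes. These counts were small and moved with single replicates: without replicate 1, 2 or 3 the called members numbered 3, 0 and 12 in Y10, 6, 3 and 7 in YPS163, 4, 7 and 8 in YPS606, 1, 1 and 4 in M22, 0, 0 and 0 in M1 and 1, 0 and 2 in YJM308. Without the third YPS606 ethanol library, 16 members were called in Y10, 14 in YPS163, 17 in YPS606 and 3 in YJM308, and RPT5 in YPS606 was at 0.32 and no longer called.

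The salt response of the proteasome genes differed from the 8-strain mean in opposite directions in the 2 vineyard strains. In M1 30 members responded less to NaCl than the 8-strain mean, where 13.8% of all genes did, and the subunit median of its own response was -0.35. In M22 19 members responded more, where 9.67% of all genes did, and its subunit median was 0.62. Without replicate 1, 2 or 3 the counts were 19, 23 and 31 in M1 and 7, 8 and 7 in M22.

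PUP1, the core subunit with trypsin-like activity, shows both. It had 85.6, 80.3 and 80.3 CPM in M1 under NaCl, against 117, 125 and 112 CPM unstressed. It had 190.3, 199.7 and 218 CPM in M22 under NaCl, against 115, 115 and 109.6 CPM unstressed. The groups were apart in both strains, and PUP1 in M1 differed from the 8-strain mean response by -0.93 (SE 0.0937, adjusted p = 9.76e-12).

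The summed subunit level in M1 was 4979, 4818 and 4651 CPM under NaCl, against 5882, 5588 and 5845 CPM unstressed. In M22 it was 8108, 8730 and 8947 CPM under NaCl, against 5501, 5411 and 5210 CPM unstressed. Paired within each culture, 27 of 33 subunits were lower under NaCl in all 3 M1 cultures, and 32 of 33 were higher in all 3 M22 cultures. For these paired counts too, the share of all genes was not computed. Other members with large differences were PRE6 (-0.95), SEM1 (-1.05, adjusted p = 0.00478), RPT2 (-0.73) and UMP1 (-0.59) in M1, and RPN9 (0.87) and PRE3 (0.74) in M22.

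The oak strains also responded more to NaCl, with 14 members higher in YPS606 (10.4% of all genes) and 7 in YPS163 (10.2%). UMP1 in YPS606 (0.88, SE 0.144, adjusted p = 5.24e-06) and RPT2 in YPS163 (0.70) were the clearest. In DBY8268 5 members were lower (3.19%) and in YJM1129 3 (5.58%). Without replicate 1, 2 or 3 these counts were 4, 8 and 10 in YPS606, 3, 2 and 7 in YPS163, 0, 0 and 2 in DBY8268 and 1, 0 and 0 in YJM1129, and with the culture as the block 1 was left in each of DBY8268 and YJM1129.

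In Y10 and YJM308, 0 members were called under NaCl by edgeR and 0 by DESeq2, where 9.03% and 8.05% of all genes were called in either direction, and 1 and 5 members had an unadjusted p under 0.05. Without the third YPS606 ethanol library, 12 members were called in YPS163 and 7 in YJM1129 under NaCl.

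Before stress, the strains differed less. DBY8268 had 10 members above the mean of the 8 unstressed strains (14.0% of all genes were higher), YJM1129 had 5 (12.5%) and M1 had 2 (11.5%). Members were lower in YPS606 (5, of 13.2%), YPS163 (4, of 16.5%), Y10 (1, of 7.83%) and YJM308 (4, of 11.8%, beside 1 higher, of 15.4%). Apart from DBY8268, the share of the 35 members called in each of these strains was close to or below that of all genes. In M22 0 were called by edgeR and 0 by DESeq2, with 6 members at an unadjusted p under 0.05 (14.2% of all genes called). Without replicate 1, 2 or 3 the counts were 3, 6 and 10 in DBY8268, 3, 0 and 1 in YJM1129, 1, 2 and 2 in M1, 2, 1 and 3 in YPS606, 2, 2 and 3 in YPS163, 0, 0 and 2 in Y10 and 2, 2 and 5 in YJM308, and without the third YPS606 ethanol library DBY8268 had 18.

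PRE1 was higher in unstressed DBY8268 (0.43) and lower in YJM308 (-0.43), UMP1 was higher in M1 (0.53) and lower in YJM308 (-0.54), and RPN12 was lower in Y10 (-0.48). The largest unstressed difference was that of the ATPase gene RPT1 in YJM308 (0.74, SE 0.0863, adjusted p = 3.04e-10). RPT1 lies on chromosome XI, and the median of 311 other genes of that chromosome in YJM308 was 0.77, whereas the other 127 medians of a chromosome in a strain lay between -0.18 and 0.10. RPT1 in YJM308 thus had the value of its chromosome. RPT1 was lower in YPS606 (-0.57, SE 0.0988, adjusted p = 6.84e-06), where the chromosome XI median was -0.18.

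The oak strain YPS606 was measured again as the wild type of the mutant experiment. Under ethanol 34 of 35 members rose there (35.8% of all genes rose), with a subunit median of 0.88, and under NaCl 26 rose (34.5%), with a median of 0.56. No member fell under either stress. UMP1 rose by 1.38 under ethanol and 1.37 under NaCl, PRE3 by 1.37 under ethanol and PRE4 by 1.17 under NaCl. Among the 19S genes, RPT3 (1.33 under ethanol), RPT5 (0.91 under NaCl) and RPN2 (1.07 and 1.06) were highest, and SEM1 was not called (0.27 and -0.21).

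RPN4 rose by 0.66 under ethanol in this second set of YPS606 libraries (SE 0.0928) and by 0.37 under NaCl (SE 0.0928, adjusted p = 4.28e-04). In the strain experiment its response in YPS606 was 1.45 under ethanol and -0.17 under NaCl, of opposite sign to that of the second set. Between the 2 YPS606 sets, 33 of 35 members had the same sign under ethanol, and 26 were called in both in the same direction, all 26 of those called in the strain experiment (where 62.9% of all genes were called) and 26 of 34 called in the mutant experiment. Under NaCl 29 had the same sign and 21 were called in both, all 21 called in the strain experiment (57.0% of all genes) and 21 of 26 in the mutant experiment. In the mutant experiment 35.8% of all genes were higher and 36.7% lower under ethanol in wild type, and 34.5% and 35.2% under NaCl. The share of all genes called in both sets was not computed, so the overlap is a description only. The sets were normalised separately, and levels between them are not compared.

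**Figure D4:**
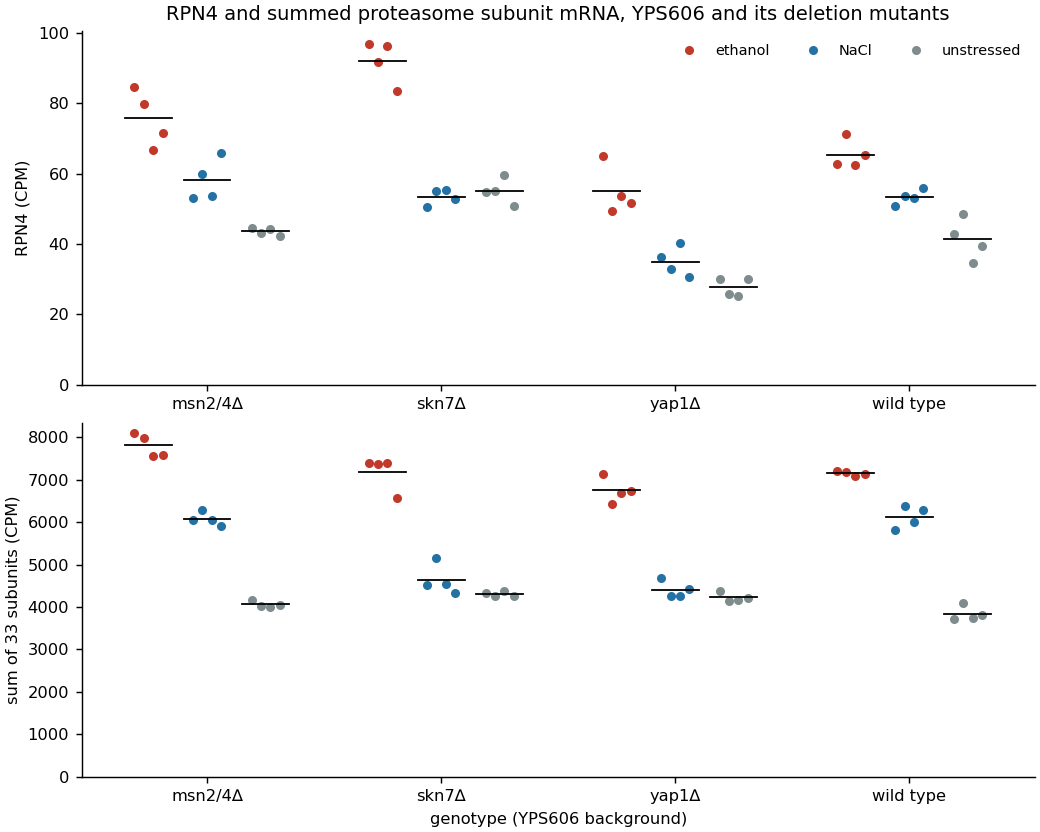
Levels in the mutant experiment, in CPM, by genotype (msn2/4∆, skn7∆, yap1∆ and wild type) and by treatment (ethanol, NaCl and unstressed, from left to right). Points are libraries and bars are means. Under NaCl the subunit sum is 4322 to 5147 CPM in skn7∆, 4255 to 4691 CPM in yap1∆ and 5823 to 6379 CPM in wild type.

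Each deleted factor was absent from its own mutant, with at most 0.467 CPM of MSN2 and 0.0778 CPM of MSN4, 0.303 CPM of SKN7 and 0.507 CPM of YAP1 in any such library. Msn2 and Msn4 are the general stress activators of yeast, Yap1 is its main oxidative stress activator, and Skn7 works with Yap1 at many oxidative stress genes. In msn2/4∆ against wild type, 0 members were called for the ethanol response, 0 for the NaCl response and 0 for the unstressed level, by edgeR and by DESeq2. All genes were called at 17.6%, 5.97% and 0.226%. At an unadjusted p under 0.05 there were 0, 2 (lower) and 3 (higher) members. As levels under ethanol, 4 members were higher in msn2/4∆ than in wild type, PRE6 (0.29), RPT4 (0.27), RPT1 (0.26) and RPT2 (0.24), where 17.4% of all genes were higher. Without the libraries of replicate 1 or 3, 0 and 1 of these level differences were called.

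The summed subunits in msn2/4∆ had 8113, 7988, 7568 and 7579 CPM under ethanol, 6047, 6276, 6048 and 5914 CPM under NaCl, and 4172, 4034, 4007 and 4040 CPM unstressed. Wild type had 7211, 7176, 7090 and 7146 CPM under ethanol, 5823, 6379, 5994 and 6293 CPM under NaCl, and 3720, 4103, 3742 and 3816 CPM unstressed. The genotypes overlapped under NaCl and unstressed, and the mutant libraries lay above the wild-type ones under ethanol. For RPN4 and UMP1 the ethanol response in msn2/4∆ differed from wild type by 0.14 (SE 0.131) and -0.03 (SE 0.165).

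Under NaCl, in contrast, the rise of the proteasome genes was smaller in both skn7∆ and yap1∆. In skn7∆ 30 members had a lower NaCl response than wild type and 0 a higher one, where 10.2% of all genes were lower, and the subunit median difference was -0.59. In yap1∆ the numbers were also 30 and 0, where 4.91% of all genes were lower, with a median of -0.61. In each mutant the called members were 13 core subunits, 6 ATPases, 10 non-ATPase subunits and UMP1. The same 5 members missed the threshold in both: PRE5 (-0.35 in skn7∆ and -0.37 in yap1∆), RPN10 (-0.29 and -0.34), RPN13 (-0.33 and -0.24), SEM1 (-0.89 and -0.49) and RPN4 (-0.41 and -0.03). Their values were below 0 as well, as were those of all 33 subunits in both mutants, and at a false discovery rate of 0.05 the counts were 34 in skn7∆ and 32 in yap1∆. SEM1 had the lowest value of all subunits in skn7∆, with an SE of 0.281 and an adjusted p of 0.0144.

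Both comparisons share the wild-type libraries, and over all genes the median difference was -0.02 in skn7∆ and -0.05 in yap1∆. In the mutants themselves the subunit median response to NaCl was 0.07 in skn7∆ and 0.04 in yap1∆, against 0.56 in wild type. The summed subunits had 4518, 5147, 4553 and 4322 CPM in skn7∆ under NaCl and 4691, 4255, 4265 and 4423 CPM in yap1∆, against 5823, 6379, 5994 and 6293 CPM in wild type. No mutant library reached the lowest wild-type library.

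The unstressed sums were 4328, 4261, 4388 and 4254 CPM in skn7∆ and 4386, 4150, 4173 and 4212 CPM in yap1∆, against 3720, 4103, 3742 and 3816 CPM in wild type. Before stress the mutants thus lay slightly above wild type. At the level of single genes only 3 members were higher in unstressed skn7∆ (RPN4 by 0.41, PUP2 by 0.39 and RPT1 by 0.30, where 4.61% of all genes were higher) and in yap1∆ RPT1 was higher (0.33, SE 0.0649) and RPN4 lower (3.58% of all genes called in either direction). Leaving out each replicate in turn gave 1 to 7 members in skn7∆ and 1 to 3 in yap1∆.

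**Figure D5:**
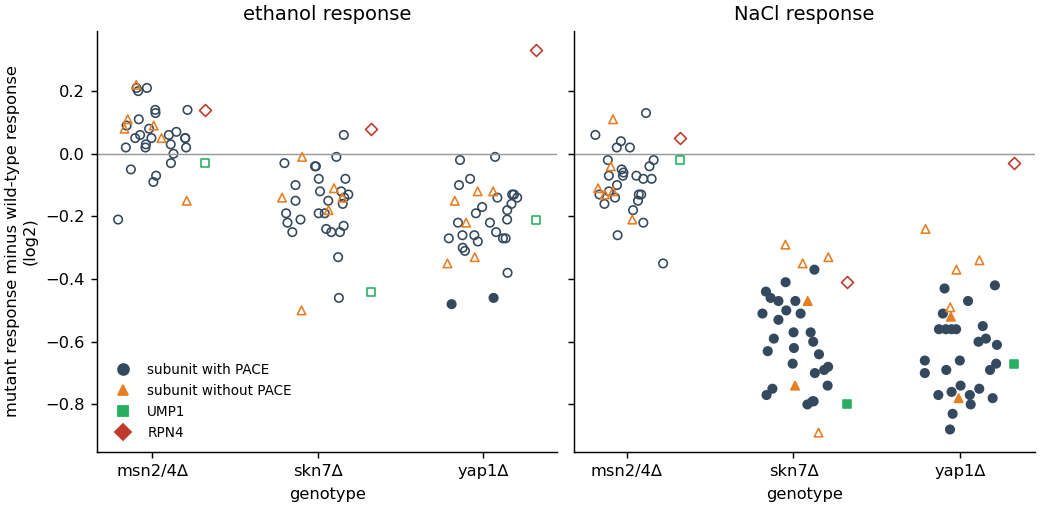
Difference of each member's NaCl response from wild type (log2) in skn7∆ and in yap1∆. Filled symbols were called at a false discovery rate of 0.01 and open symbols were not; circles are subunits with PACE, triangles subunits without it, the square is UMP1 and the diamond RPN4. All comparisons within a panel use the same wild-type libraries, and under NaCl RPN4 lies at -0.41 in skn7∆ and -0.03 in yap1∆.

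RPT2 and PRE1 were among the called subunits with the largest differences. The ATPase gene RPT2 had 147, 154, 137 and 124 CPM in skn7∆ and 143, 122, 123 and 126 CPM in yap1∆ under NaCl, against 192, 204, 202 and 212 CPM in wild type. Unstressed it had 147, 130.3, 148 and 134 CPM in skn7∆ and 139, 133, 126 and 129.99 CPM in yap1∆, against 119, 121, 122 and 106 CPM in wild type. The mutants were below wild type under NaCl and above it before, and the response differed by -0.79 (SE 0.103, adjusted p = 1.03e-07) in skn7∆ and -0.83 (SE 0.103, adjusted p = 9.34e-08) in yap1∆.

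The core gene PRE1 had 73.5, 114, 67.5 and 61.2 CPM in skn7∆ and 70.1, 67.7, 65.2 and 71.8 CPM in yap1∆ under NaCl, against 112, 138, 105 and 122 CPM in wild type. All libraries of yap1∆ were below those of wild type, and the second skn7∆ library was inside the wild-type range. The difference in response was -0.80 (SE 0.16, adjusted p = 1.36e-04) in skn7∆ and -0.88 (SE 0.161, adjusted p = 8.48e-05) in yap1∆. RPN5 in skn7∆ (-0.79) and RPN3 in yap1∆ (-0.80) differed by as much, RPT6 least among the ATPases (-0.37 and -0.42), and UMP1 by -0.80 in skn7∆ and -0.67 in yap1∆.

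The second skn7∆ NaCl library stood above the other 3 over the subunits. Without it 33 members were lower in skn7∆, and without all libraries of replicate 3 or of replicate 4 there were 17 in each case. For yap1∆ the count was 20 to 31 when 1 replicate was left out. As levels under NaCl, 29 members were lower in skn7∆ (16.3% of all genes) and 32 in yap1∆ (11.4%) than in wild type, and without replicate 4 the skn7∆ count was 17. The mRNA of YAP1 was itself lower in skn7∆ under NaCl than in wild type, by -0.57 (adjusted p = 5.41e-06), and its part in the result was not tested.

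Under ethanol few or no members were called in the same mutants. The subunit median difference from wild type was -0.15 in skn7∆ (32 of 33 subunits below 0) and -0.22 in yap1∆ (33 of 33 below 0). Over all genes the median difference was 0.01 in each mutant, and the share of all genes below 0 was not computed. All of these differences share the wild-type libraries, so the signs are not independent of each other. In skn7∆ 0 members were called by edgeR (4.47% of all genes in either direction), with 7 lower at an unadjusted p under 0.05 and 1 called by DESeq2. In yap1∆ 2 were lower, RPT1 (-0.48, SE 0.0913, adjusted p = 3.12e-04) and RPT2 (-0.46, SE 0.103, adjusted p = 0.00208), where 1.55% of all genes were lower. Without replicates 1, 2, 3 and 4 in turn, 1, 3, 0 and 1 were called. RPT1 under ethanol had 206, 157, 196 and 192 CPM in yap1∆, against 206, 202, 212 and 209.95 CPM in wild type, and unstressed 144, 137, 137 and 138 CPM in yap1∆, against 106, 116, 107 and 113 CPM in wild type. The groups were apart in unstressed cells and close under ethanol.

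RPN4 itself followed another pattern than the subunits. In yap1∆ it was low in every treatment, with 65.0, 49.4, 53.6 and 51.7 CPM under ethanol, 36.2, 32.9, 40.3 and 30.6 CPM under NaCl, and 29.9, 25.8, 25.2 and 30.0 CPM unstressed. Wild type had 62.6, 71.2, 62.5 and 65.2 CPM under ethanol, 50.9, 53.7, 53.0 and 56.1 CPM under NaCl, and 42.8, 48.5, 34.7 and 39.5 CPM unstressed. The yap1∆ libraries were below all wild-type libraries under NaCl and unstressed, and 1 of them overlapped wild type under ethanol.

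The level of RPN4 in yap1∆ differed from wild type by -0.58 unstressed (adjusted p = 3.02e-05) and -0.61 under NaCl (adjusted p = 1.79e-06), and by -0.25 under ethanol, which was not called (adjusted p = 0.0562). Its response did not differ at the threshold under NaCl (-0.03, SE 0.135) or under ethanol (0.33, SE 0.133, adjusted p = 0.121). The RPN4 level was thus lower in yap1∆ before salt as well as after it, while the subunit sum lay below that of wild type after salt and slightly above it before.

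In skn7∆ RPN4 was higher than in wild type without stress and under ethanol but not under NaCl. It had 96.9, 91.7, 96.2 and 83.5 CPM under ethanol, 50.6, 55.1, 55.3 and 52.9 CPM under NaCl, and 54.8, 54.9, 59.6 and 50.9 CPM unstressed. Under NaCl these libraries overlapped those of wild type and the level difference was 0.00, whereas it was 0.41 unstressed (adjusted p = 0.00147) and 0.49 under ethanol (adjusted p = 6.14e-05). Paired within cultures, the NaCl response of RPN4 lay between -0.11 and 0.06 in skn7∆, against 0.15 to 0.61 in wild type. The difference of the responses, -0.41, was not called (SE 0.131, adjusted p = 0.0147).

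Grouped by the promoter element, all 27 subunits with PACE were called as lower in their NaCl response in skn7∆ (median -0.60) and in yap1∆ (median -0.66). All 6 without it were also below 0, with medians of -0.41 and -0.43, and 2 of them, PUP1 and RPN8, were called in each mutant. The response of wild type to NaCl had a median of 0.64 in subunits with PACE and 0.30 in those without. In the mean of the 8 strains the medians were 0.38 and 0.06 under ethanol and 0.30 and 0.04 under NaCl. The lower salt response in M1 was not confined to PACE genes, with 23 of 27 called (median -0.58) and 6 of 6 without the element (median -0.79). With 6 genes in the smaller group, these are descriptions.

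Genes around the proteasome were taken from lists, which were also chosen with earlier results of these data known. Of 12 assembly chaperones, activators and associated proteins, 8 rose and 3 fell under ethanol in the mean of the 8 strains (median 0.71), where 42.4% of all genes rose and 40.8% fell, and 6 rose and 2 fell under NaCl (median 0.10), where 33.7% rose and 41.9% fell. ADD66, a core assembly chaperone, rose by 1.79 under ethanol, and ECM29, which tethers the core to the regulatory particle, by 1.21. Of 19 genes of ubiquitin and its delivery, 13 rose and 2 fell under ethanol (median 0.26), and 11 rose and 4 fell under NaCl (median 0.23). The polyubiquitin gene UBI4 rose by 5.36 under ethanol and 2.57 under NaCl. UBC4 and UBC5 encode near-identical ubiquitin conjugating enzymes, and UBC5 rose under both (1.51 and 2.52) while UBC4 rose under ethanol (1.72) and fell under NaCl (by 0.89). UBI4 shares its repeats with other ubiquitin genes, and reads of these 3 genes may be divided wrongly among copies.

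The same lists moved in part with the subunits. In M1 under NaCl, 6 of 12 assembly genes and 8 of 19 ubiquitin genes responded less than the 8-strain mean (13.8% of all genes did), with UBI4 at -2.24, UBC5 at -1.16 and ECM29 at -1.07. In skn7∆ under NaCl 4 of 12 and 8 of 19 were lower than in wild type (10.2% of all genes), with UBC5 at -1.60, ECM29 at -1.36 and UBI4 at -1.18. In yap1∆ 5 of 12 and 5 of 19 were lower (4.91% of all genes), with BLM10 (an alternative activator of the core) at -1.0, ECM29 at -0.97 and UBP6 (a deubiquitinase on the base) at -0.83. In msn2/4∆ UBI4 responded less to ethanol (-1.89) and to NaCl (-0.71).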

How the data were processed

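The deposited table holds expected counts per gene, which the authors made with RSEM 1.3.1. Their 50-base single-end reads of polyadenylated RNA were trimmed with Trimmomatic and aligned with STAR 2.6.1 to strain-specific genomes. For these the reads were mapped to sacCer3 (R64) with Bowtie2 2.3.4.1, variants were called with bcftools, and GATK wrote the new genomes. The strand setting and the annotation version are not given in the sources used here. Expected counts (22.9% not whole) were rounded, and 0 columns were left unused. The 119 libraries are all different (0 identical pairs, chi-square over its degrees of freedom 7.31 to 257.6 for replicate pairs), with the depth given above, which sets the counting error.

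Each experiment was fitted alone with edgeR 4.0.16 in R 4.3.3: TMM factors (0.513 to 1.29 and 0.729 to 1.26), genes with a group mean of at least 1 CPM, the quasi-likelihood method, and group plus replicate number as factors, after the study. CPM and log2 changes were computed here. The number marks a culture split over treatments and a sequencing lane per the study's methods. Residuals of libraries from the same culture correlated at 0.076 and 0.089 on average, same number but other culture at 0.063 and 0.07, other numbers at -0.032 and -0.024. A gene was called at a false discovery rate of 0.01 (Benjamini-Hochberg). The scripts were tested on simulated data.

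Members, lists and tests were chosen with earlier results of these data known. Named were RPN4 and UMP1, the highest and lowest subunit per structural class in each comparison, up to 3 called members with the largest differences, up to 3 called genes of each list and the deleted genes. Other members are named where a count or sequence needs them, after their values were seen. Motifs were searched in R64 with the annotation of RefSeq. Alternatives were DESeq2 1.42.0, its size factors, no filter, no replicate block, culture as block, edgeR 4's newer quasi-likelihood method, a false discovery rate of 0.05, a 1.5-fold minimum, the mean of the other 7 strains and leaving out replicates. Leaving out the third YPS606 ethanol and the second skn7∆ NaCl library and the 600-base window were added after seeing the data.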

Additional observations from a re-analysis of the deposited data

Results flagged for a closer look

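The median log2 CPM of the 33 subunits in the second skn7∆ NaCl library was 7.21, the top of a group that ran from 6.79 to 7.21, and its gap to the next library was 0.834 of the range. It is the 1 group of 4 mutant or wild-type libraries whose RPN4 level, UMP1 level or subunit median stood out so far. Chance alone sets apart about 1 in 20 groups on each measure, and all these measures were searched in every such group.

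Differences between a strain and the 8-strain mean that were called by the edgeR test of the difference itself are repeated here together. For the ethanol response they were RPN4 in DBY8268 (1.58), YJM1129 (1.08), YJM308 (0.87), YPS163 (-0.80), M22 (-0.94), YPS606 (-0.98) and Y10 (-1.10), UMP1 in DBY8268 (-0.59) and Y10 (0.51), PRE1 in Y10 (0.72), PRE3 in DBY8268 (-0.78), RPT5 in YPS606 (0.59) and YJM1129 (-0.77), RPN7 in YPS606 (0.63) and RPN8 in YJM1129 (-0.84). For the NaCl response they were PRE3 (0.74) and RPN9 (0.87) in M22, PRE6 (-0.95), PUP1 (-0.93), RPT2 (-0.73), SEM1 (-1.05) and UMP1 (-0.59) in M1, RPT2 in YPS163 (0.70) and UMP1 in YPS606 (0.88).

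Between mutant and wild type, the called differences of the NaCl response among named members were PRE1 (-0.80), RPT6 (-0.37), RPT2 (-0.79), RPN5 (-0.79) and UMP1 (-0.80) in skn7∆, and PRE1 (-0.88), RPT6 (-0.42), RPT2 (-0.83), RPN3 (-0.80) and UMP1 (-0.67) in yap1∆. For the ethanol response they were RPT1 (-0.48) and RPT2 (-0.46) in yap1∆.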

How the results depend on the processing

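No named call changed direction under any alternative. With a minimum of 1.5-fold, the members called were 8 for the mean ethanol response, 2 for the mean NaCl response, 4 for ethanol against NaCl, 16 for the wild-type NaCl response, 17 for the skn7∆ NaCl response and 0 for unstressed skn7∆, unstressed yap1∆ and the yap1∆ ethanol response. Pairs of a member and a strain were 30 for ethanol, 29 for NaCl and 1 for unstressed cells, against 84, 78 and 32 without it. At a false discovery rate of 0.05 there were 58 unstressed pairs, 2 members for the skn7∆ ethanol response and 9 for unstressed skn7∆, and DESeq2 gave 1 for the skn7∆ ethanol response. Leaving out replicates or single libraries gave 34 to 104 ethanol pairs, 34 to 100 NaCl pairs, 13 to 45 unstressed pairs, and in skn7∆ 17 to 33 members for NaCl, 0 to 1 for ethanol and 1 to 7 unstressed, and in yap1∆ 0 to 3 for ethanol and 1 to 3 unstressed. Without the replicate block 79 ethanol, 70 NaCl and 30 unstressed pairs were called, and 3 named calls were lost: RPN4 in the mean NaCl response (-0.20), UMP1 in Y10 under ethanol (0.49) and UMP1 in yap1∆ under NaCl (-0.68). Of 82 named calls, 20, 14 and 16 were lost without replicates 1, 2 and 3, and 31 are below 1.5-fold. Replicate 4 exists in the mutant experiment only, where 7 named calls were lost without it and 23 were kept. Per strain, DESeq2 called 8 members in DBY8268 and 9 in YJM1129 under NaCl, 7 in M1 and 5 in M22 under ethanol and 3 in unstressed Y10, its size factors gave 4 in M1 under ethanol, and no filter gave 3 in unstressed YJM1129 and 2 in YJM308 under ethanol. For the 4 higher ethanol levels in msn2/4∆, no filter left 2, a false discovery rate of 0.05 gave 8 and the 1.5-fold minimum 0. With the culture as the block, 1 was called in M1 under ethanol. Without a filter, RPT6 in skn7∆ under NaCl was at -0.32 and was not called. The cause of these shifts was not tested. Leaving out libraries lowered some counts and raised others, as with 34 to 104 ethanol pairs against 84. With 2 to 4 libraries a group, differences near the SE values given, about 0.1 to 0.2 between strains, were not detectable.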

Other observations

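The mRNAs of the factors with sites in the RPN4 promoter were followed as a list. Under ethanol, in the mean of the 8 strains, PDR1 fell by 0.60 (SE 0.0388) and YAP1 by 0.27 (SE 0.0557), whereas HSF1 (0.10) and PDR3 (-0.08) were not called.

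YAP1 differed between strains, a pattern noticed after its values were seen. Under NaCl it was at 103, 112 and 99.6 CPM in M1, against 156, 134 and 162 CPM unstressed, and at 198, 202 and 194 CPM in M22, against 156, 139.8 and 157 CPM unstressed. The M1 libraries lay below and the M22 libraries above all unstressed libraries of the same strain. Against the 8-strain mean the NaCl response of YAP1 was lower in M1 (-0.56) and higher in YPS163 (0.63), while M22 was not called (0.35, adjusted p = 0.0548), and its ethanol response was lower in DBY8268 (-0.66) and YJM1129 (-0.64) and higher in YPS163 (0.69), by the edgeR test. In these strains subunit responses also differed in the same direction, but the strains were picked after the values were seen. YAP1 is not given here for Y10 or YPS606, where members were also called as responding more. Whether YAP1 mRNA has a part in the subunit responses was not tested.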
